A study of Mus musculus with 4 samples.

Results

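Venular *Selp Ackr1* endothelial cells of the mouse fracture callus were taken as single cells with at least 2 unique molecular identifiers (UMIs, each standing for 1 captured RNA molecule) of *Pecam1*, at least 1 of *Cdh5* and at least 3 of *Selp* and *Ackr1* together, with no UMI of *Prox1* or *Ptprc* and at most 1 of *Mki67*. The members were thus chosen by measured UMI counts of these 7 genes. Of 25479 cells that passed the quality filters, 1193 met this rule, which is 1193 of the 3600 cells with *Pecam1* and *Cdh5*. The 4 libraries came from callus of wild-type male C57BL/6J mice aged 3 months, with 4 calluses pooled in each library according to the design text (the methods of the study give another number). Mice received K/BxN serum, which carries arthritis-inducing antibodies (RA), or vehicle (control), and callus was collected at 4 or 7 days post-fracture (dpf). The groups control_4d, control_7d, RA_4d and RA_7d held 1 library each, with 7630, 10206, 5896 and 10306 deposited cell barcodes and 168210361, 177131833, 130168130 and 182259646 UMIs. Serum transfer is a model of antibody-driven arthritis, so RA here names serum-treated mice and not a disease that arose on its own.

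Postcapillary venules are the main site at which leukocytes leave the blood. Their endothelium stores P-selectin (*Selp*) with von Willebrand factor (*Vwf*) in Weibel-Palade bodies, makes E-selectin (*Sele*) upon cytokine stimulation, and carries the atypical chemokine receptor ACKR1 (*Ackr1*), which binds inflammatory chemokines without G protein signalling. Rolling leukocytes are captured by the selectins and then arrest through integrin ligands such as ICAM1 and VCAM1. *Lrg1* encodes a secreted glycoprotein of venular endothelium that acts on TGF-beta signalling.

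Neighbouring position is shared by part of these genes. On GRCm38 (GENCODE M21), *Sele* lies at chr1:164048234-164057677 and *Selp* at chr1:164115264-164150026, both on the plus strand, and the next gene after *Selp*, 1812 bases on, is coagulation factor V (*F5*). *Ackr1* lies at chr1:173331886-173333750 on the minus strand and overlaps the neuronal adhesion gene *Cadm3* on the same strand, so that reads of *Ackr1* and *Cadm3* can be hard to assign and the value of *Cadm3* is uncertain. *Vwf* lies at chr6:125546774-125686679, 3740 bases before the chloride channel gene *Ano2*, and *Lrg1* at chr17:56119678-56122001. Stretches before the start sites of *Selp*, *Sele* and *Lrg1* are shown as those of venular markers, and those of *Ackr1* and *Vwf* are not shown. They are from RefSeq (GRCm38.p6), 5′ to 3′ on the gene's own strand, and end before the first exon. They span chr1:164115014-164115263, chr1:164047984-164048233 and chr17:56122002-56122196, and capitals mark the ETS core GGAA or its reverse complement TTCC.
Selp: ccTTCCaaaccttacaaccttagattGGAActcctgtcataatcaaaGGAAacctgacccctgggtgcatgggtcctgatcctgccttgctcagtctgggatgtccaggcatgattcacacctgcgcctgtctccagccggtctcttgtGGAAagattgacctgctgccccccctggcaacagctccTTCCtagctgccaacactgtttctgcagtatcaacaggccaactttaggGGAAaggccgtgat
Sele: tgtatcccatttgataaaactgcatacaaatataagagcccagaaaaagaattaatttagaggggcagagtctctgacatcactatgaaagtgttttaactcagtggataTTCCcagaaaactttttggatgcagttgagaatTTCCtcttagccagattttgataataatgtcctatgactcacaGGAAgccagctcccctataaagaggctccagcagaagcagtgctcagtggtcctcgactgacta
Lrg1: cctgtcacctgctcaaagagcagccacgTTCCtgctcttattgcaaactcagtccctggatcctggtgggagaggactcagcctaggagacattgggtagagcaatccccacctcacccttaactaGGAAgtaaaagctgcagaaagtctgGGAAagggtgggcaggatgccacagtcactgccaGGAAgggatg
The ETS core occurred 6 times in the *Selp* stretch, 3 times in that of *Sele* and 4 times in that of *Lrg1*, on either strand. Of 32544 promoters, 93.4% held at least 1 such match in a stretch of 250 bases, with a median of 3, and 88.6% in a stretch of 195 bases, with a median of 2. A STAT motif, TTCNNNGAA, was found once, in *Sele* as TTCCCAGAA, where it overlaps an ETS core, and 7.04% of promoters held it in 250 bases. No match to the NF-kB consensus was found in these 3 stretches, and 7.28% of promoters held one in 250 bases and 5.58% in 195 bases. A match describes letters and not a bound site, and no match says only that these letters are not in the window.

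Cells of the blood endothelial gate (*Pecam1* and *Cdh5* cells without *Prox1* or *Ptprc* and with at most 1 *Mki67* UMI) fell into those with almost no *Selp* or *Ackr1* and those with many. Of these cells, 1031 had 0 UMIs of the pair, 143 had 1, 90 had 2, 68 had 3, 50 had 4, 45 had 5 and 1030 had 6 or more. Since *Selp* and *Ackr1* chose the cells, their levels are a description only.

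**Figure D1:**
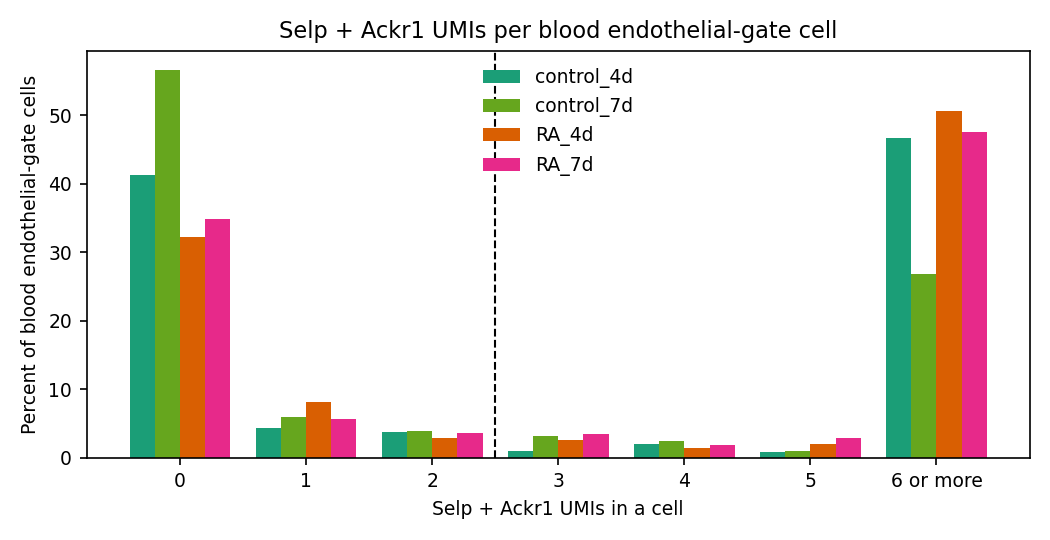
Share of blood endothelial-gate cells (y, percent) by the number of *Selp* and *Ackr1* UMIs in the cell (x), for each library (bar colour), with the gate as a dashed line. Most cells lay at 0 or at 6 or more in each library, and the cells with 3, 4 or 5 numbered 68, 50 and 45 over all libraries.

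The 90 blood-gate cells with 2 UMIs of the pair, just outside the rule, held *Vwf* at 154, *Lrg1* at 496 and *Sele* at 57.5 CPM (the UMIs of a gene in the summed cells, scaled to counts-per-million of all their UMIs). The 68 cells with 3 UMIs, just inside, held 164, 532 and 72 CPM. All 1193 members together held 616, 1103 and 237 CPM, while the 878 remaining blood cells, outside the venular and arterial gates, held 48.2, 207 and 18 CPM. The edge of the gate thus held intermediate levels of all 3 genes on both sides.

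Within the members, *Selp* and *Ackr1* were found in the same cell for 84.4%, 82.1%, 78.5% and 80.3% of members, taking the libraries in the order control_4d, control_7d, RA_4d, RA_7d. Members with *Selp* alone numbered 36, 39, 37 and 98, and members with *Ackr1* alone 2, 3, 5 and 4, in the same order. The median member held 12, 8, 12 and 9 *Selp* UMIs and 8, 5, 6 and 4 *Ackr1* UMIs. *Vwf*, *Lrg1* and *Sele*, which the rule did not use, were all present in 75%, 63.8%, 69.7% and 64.2% of members, and at most 1 member of a library had none of them. Over single members, Spearman's rho between the UMI shares of *Ackr1* and *Vwf* was 0.56, 0.47, 0.69 and 0.46, and that between *Lrg1* and *Sele* was 0.07, 0.06, 0.13 and 0.08. Cells of a library share its depth, and these values are descriptions without a test. No member barcode was shared between libraries.

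*Sele* was found in 77.9% (95% Clopper-Pearson interval 72.1 to 82.9), 68.9% (62.6 to 74.8), 73.3% (66.5 to 79.4) and 67.8% (63.6 to 71.8) of members of control_4d, control_7d, RA_4d and RA_7d. The same share among myeloid-gate cells, which lack endothelial selectins, was 0.0375%, 0.139%, 0.169% and 0.0784%. The median depth was 17525, 13462, 18341 and 13544 UMIs in members and 15509, 12085, 16179 and 12679 UMIs in myeloid-gate cells. With each member thinned to 4000 UMIs, *Sele* was found in 51.6%, 44.7%, 46.7% and 43.9%. Intervals cover counting error only.

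The share of members among *Pecam1 Cdh5* cells was 34.1% in control_4d (244 of 716, 95% Clopper-Pearson interval 30.6 to 37.7), 23.4% in control_7d (235 of 1005, 20.8 to 26.1), 37.0% in RA_4d (195 of 527, 32.9 to 41.3) and 38.4% in RA_7d (519 of 1352, 35.8 to 41.0). Control_7d was the lowest, and its interval did not overlap the others, which overlapped one another. The ratio of the RA to the control share was 1.09 (exact interval 0.895 to 1.32) at 4 dpf and 1.64 (1.40 to 1.92) at 7 dpf. The ratio of the 7 dpf to the 4 dpf share was 0.686 (0.571 to 0.824) in control and 1.04 (0.878 to 1.23) in RA. When all cells were thinned to 10000 UMIs, leaving out 47, 176, 39 and 235 shallower endothelial cells, the shares were 36.9%, 23.5%, 35.5% and 38.9%. Of all kept cells, members made up 4.46%, 3.06%, 4.74% and 6.31%. Each group is 1 library and no test between conditions was made, and a difference between conditions cannot be told apart from one between libraries. Fewer other endothelial cells and more venular cells cannot be told apart in a share either.

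**Figure D2:**
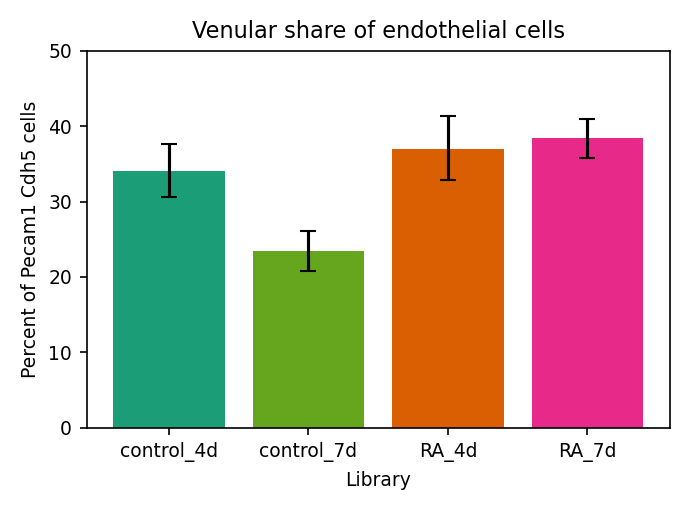
Share of venular cells among *Pecam1 Cdh5* cells (y, percent) in each library (x), with exact 95% binomial intervals as error bars. The bar of control_7d stands at 23.4% and the other 3 between 34.1% and 38.4%.

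The other 2407 *Pecam1 Cdh5* cells were a mixture. Of these, 396 had 3 or more UMIs of *Selp* and *Ackr1* and were left out of the members only for *Prox1*, *Ptprc* or *Mki67*, and 610 had a *Prox1* UMI, 353 a *Ptprc* UMI and 342 more than 1 *Mki67* UMI. The 12 leukocyte markers summed to 3555, 4595, 8528 and 4234 CPM in these cells in control_4d, control_7d, RA_4d and RA_7d, led by *S100a8*, and to 144, 155, 217 and 152 CPM in members. Members were therefore compared both with all other endothelial cells and with the 1264 others that met the blood gate. For each comparison UMIs were summed per library and kind, and edgeR's quasi-likelihood test was run over these 8 sums with the library as a block. The 4 libraries differ in treatment and time, so these p-values measure the spread of the contrast among them, and genes that accompany *Selp* and *Ackr1* from cell to cell differ because of how the cells were chosen.

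Of 8913 genes tested, 1559 were higher in members (17.5%) and 1598 lower (17.9%) at an adjusted p under 0.05. Against the others of the blood gate, 1441 of 8705 genes were higher (16.6%) and 1459 lower (16.8%). These shares over all genes are the background for each count of a gene list below. Of the genes called higher, 1182 were shared, which is 75.8% of the first set and 82% of the second, and of those called lower 988, which is 61.8% and 67.7%. Of all 3157 genes called against other endothelial cells, 2170 had the same call against the blood-gate others, 777 were not called, 199 were not tested and 11 had the opposite call. A gene was tested if it reached 10 CPM in 4 of the 8 sums. Genes under 10 CPM in all 4 member sums, 219 of the 8913, passed only through the other cells, and 34 passed only through members, so that the direction of these genes was set by the filter.

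Outside the rule, *Vwf*, *Lrg1* and *Sele* were higher in members of all 4 libraries, with no overlap between member and other levels. *Vwf* stood at 724, 447, 667 and 606 CPM in members of control_4d, control_7d, RA_4d and RA_7d and at 147, 85.7, 131 and 273 CPM in other endothelial cells (log2 fold change 2.11, SE 0.21, adjusted p = 0.00021). *Sele* stood at 262, 234, 243 and 220 CPM in members against 43.9, 24.5, 42.5 and 49.3 CPM (2.69, SE 0.15, adjusted p = 2.38e-05). *Lrg1* stood at 1406, 1049, 1117 and 945 CPM against 306, 204, 269 and 344 CPM (2.09, SE 0.14, adjusted p = 4.13e-05). Against the blood-gate others, which hold no cell past the *Selp Ackr1* threshold, the log2 differences were larger, at 3.08 for *Vwf*, 4.24 for *Sele* and 2.82 for *Lrg1*. All 5 labelled markers were found in the same cell for 168 of 244, 131 of 235, 115 of 195 and 289 of 519 members, in the same library order. Among these markers *Selp* and *Ackr1* had chosen the cells.

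**Figure D3:**
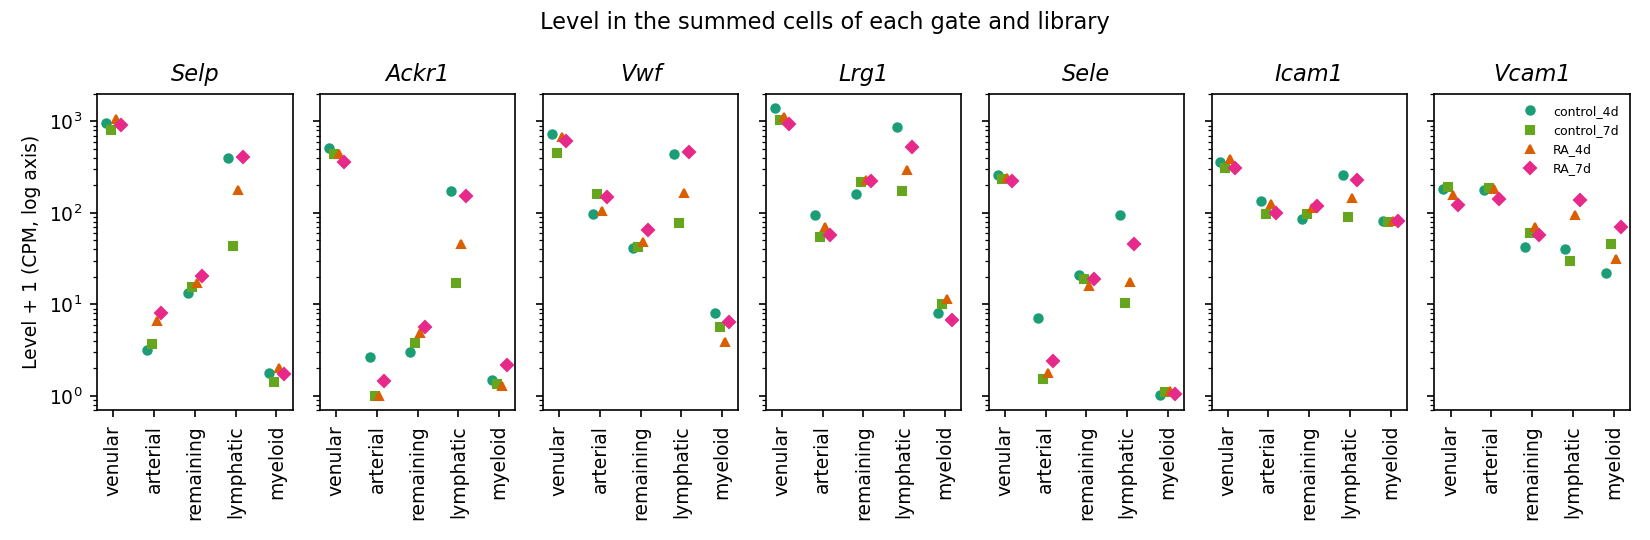
Level of 7 genes (y, CPM plus 1, log axis) in the summed cells of each gate (x) for the 4 libraries (symbols). The first 5 genes were highest in venular cells in each library (*Selp* and *Ackr1* by the rule), while *Vcam1* in venular and arterial cells overlapped.

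Arterial-gate cells (386, with at least 2 UMIs of *Gja5*, *Sema3g* and *Bmx*) held *Vcam1* at 175, 187, 183 and 141 CPM, beside 180, 191, 156 and 121 CPM in members. The lymphatic gate (424 cells with at least 2 *Prox1* UMIs) held *Vwf* at 443, 77.6, 164 and 462 CPM, and *Selp* at 398, 42.4, 179 and 412 CPM, so that control_4d and RA_7d were high for both genes and control_7d low.

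The 15 genes outside the rule with the largest fold change were taken among those called, at 50 CPM or more and higher in all 4 libraries. Beside *Sele*, *Vwf*, *Lrg1* and the uncertain *Cadm3*, these were *Mctp1*, *Ano2*, *Tll1*, *Fmo2*, *Il1r1*, *Chp2*, *Aqp1*, *Ptgs1*, *Slco2a1*, *Iigp1* and *Spint2*. *Mctp1*, which encodes a C2-domain membrane protein, was the most abundant after *Aqp1*, at 1462, 1595, 1517 and 1590 CPM in members against 288, 171, 194 and 392 CPM (2.71, SE 0.19, adjusted p = 4.68e-05). *Aqp1*, a water channel, stood at 2287, 1047, 2246 and 1945 CPM against 490, 196, 481 and 752 CPM (2.13, SE 0.16, adjusted p = 6.22e-05), so that control_7d was the lowest in both kinds of cell. *Il1r1*, the signalling receptor of interleukin-1, stood at 363, 319, 431 and 325 CPM against 81.5, 55.2, 87.3 and 101 CPM (2.24, SE 0.13, adjusted p = 2.28e-05). *Ptgs1*, the constitutive cyclooxygenase, and *Slco2a1*, a prostaglandin transporter, were higher by 2.12 and 2.10 on the log2 scale. *Tll1*, a secreted metalloprotease, was higher by 2.46, *Iigp1*, an interferon-inducible GTPase, by 2.09, and *Spint2*, a serine protease inhibitor, by 2.00. *Ano2*, the neighbour of *Vwf*, was higher by 2.49, at 63.8, 53.4, 64.0 and 55.8 CPM in members against 11.5, 4.96, 9.44 and 20.9 CPM. All these genes were also called higher against the blood-gate others, with log2 differences between 2.30 (*Iigp1*) and 4.44 (*Mctp1*).

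The 10 genes named on the lower side are known from lymphatic endothelium and myeloid cells, and the rule kept cells with *Prox1* or *Ptprc* out of the members. Of the 10, 8 were under 10 CPM in all member sums and passed the filter only through the other cells, so their direction is no finding. *Lyve1*, *Reln* and *Ccl21a* (one of 2 gene IDs with this symbol) are lymphatic endothelial genes, and *Camp*, *Ngp*, *Ltf*, *Wfdc21*, *S100a8*, *S100a9* and *Chil3* are neutrophil and myeloid genes. *Lyve1* stood at 0.453, 0.875, 0.81 and 0 CPM in members and at 42.9, 68.8, 77.4 and 169 CPM in other cells. *S100a8* stood at 2.72, 13.1, 57.2 and 4.19 CPM in members and at 1087, 1793, 3676 and 1395 CPM in others. Of these 10 genes only *S100a9* passed the expression filter against the blood-gate others, where it was not called (log2 difference 0.56, adjusted p = 0.139).

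Venous identity genes were higher as a group. Of 10 members of the list, 8 were higher and 1 lower, with a median log2 difference of 1.04 beside -0.01 for all genes. *Nr2f2*, which encodes the venous transcription factor COUP-TFII, stood at 463, 390, 533 and 425 CPM in members and 168, 170, 232 and 260 CPM in others (1.21, SE 0.12, adjusted p = 0.000184). *Bst1* (1.61), *Nrp2* (0.86) and *Aplnr* (0.62) were higher as well. *Ephb4*, the venous ephrin receptor, was higher by 0.33 but not called against the blood-gate others (0.22, edgeR adjusted p = 0.0577). *Flt4*, the VEGF-C receptor that also marks lymphatic vessels, was the 1 lower gene, at -2.88.

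Most arterial and tip cell genes were lower. In the arterial list 12 of 14 tested genes were lower (median -1.93), and the other two were not called. Of the 14, 5 passed the filter only through the other cells, and of the remaining 9, 7 were lower. *Gja5*, a gap junction gene of arteries, stood at 0, 3.21, 0 and 1.83 CPM in members and at 32.2, 36.5, 36.8 and 32.1 CPM in others. *Sema3g* stood at 1.13, 5.54, 1.08 and 4.06 CPM against 63.6, 60.9, 78.7 and 74.2 CPM. Both *Gja5* and *Sema3g* passed the filter only through the other cells, so that their direction was set by the filter. *Cxcl12*, the ligand of CXCR4, stood at 39.2, 104, 49.7 and 94.3 CPM against 419, 344, 234 and 339 CPM (-2.19, SE 0.24, adjusted p = 0.000401). Of 11 tip cell and angiogenesis genes 10 were lower (median -1.88), with *Cxcr4*, the receptor of CXCL12, at -3.02. *Pgf* and *Esm1* were 2 that passed the filter only through the other cells, and of the remaining 9, 8 were lower. Against the blood-gate others, where 5 arterial and 2 tip cell genes were again under 10 CPM in all member sums, 8 of the remaining 9 arterial and 7 of the remaining 9 tip cell genes were lower.

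In the Notch pathway 8 of 14 tested genes were lower and 2 higher (median -0.43), and 1 of those lower passed the filter only through the other cells. The ligand *Dll4* stood at 12.7, 17.2, 18.1 and 22.8 CPM in members against 80.6, 83.6, 68.4 and 60.3 CPM (-1.93), and the receptor *Notch4* was lower by 2.02 on the log2 scale. The ligand *Dll1* was higher, at 67.0, 42.9, 52.6 and 61 CPM against 28.2, 24.6, 33.9 and 39.1 CPM (0.91, SE 0.12, adjusted p = 0.000807), and so was the glycosyltransferase gene *Lfng* (0.43).

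Capillary genes were split in direction. Of 8 tested, 3 were higher and 4 lower (median -0.13). Against the blood-gate others 2 of 9 were higher and 6 lower (median -0.47), 1 of the 9 being under 10 CPM in all member sums. *Plvap*, the diaphragm protein of fenestrae, was higher at 1342, 1116, 1279 and 1128 CPM against 698, 524, 642 and 648 CPM (1.03), and the fatty acid genes *Fabp4* (0.91) and *Cd36* (0.55) were higher too, the latter not called against the blood-gate others (0.22, edgeR adjusted p = 0.0657). *Gpihbp1*, which holds lipoprotein lipase on capillaries, was lower (-1.52), as was *Rgcc* (-1.65). Among 11 genes of junctions and permeability, a list that also holds *Plvap*, 3 were higher and 4 lower (median -0.07). Of the lower, 1 (*Cgnl1*) passed the filter only through the other cells. Against the blood-gate others 3 of 11 were higher and 7 lower (median -0.22), 1 of the 11 being under 10 CPM in all member sums. *Cldn5*, the main tight junction claudin of endothelium, stood at 28.1, 54.3, 89.9 and 84.2 CPM in members against 444, 572, 490 and 614 CPM (-3.05, SE 0.22, adjusted p = 5.20e-05), and *Jup*, which encodes plakoglobin, was lower by 2.30 on the log2 scale.

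Leukocyte adhesion genes were higher for some members of the list and lower for others. Of 12 tested, 7 were higher, 3 lower and 2 not called (median 0.40), and against the blood-gate others 5 were higher and 3 lower (median 0.21). *Icam1*, the integrin ligand, stood at 357, 307, 385 and 310 CPM against 153, 103, 156 and 176 CPM (1.30, SE 0.11, adjusted p = 0.000105), and *Vcam1* at 180, 191, 156 and 121 CPM against 87.0, 81.1, 105 and 99.3 CPM (0.86, SE 0.15, adjusted p = 0.00306). *Jam2*, a junctional adhesion gene, was higher (1.23) and *Icam2* lower (-0.47). *Jam3* was under 10 CPM in all member sums and passed the filter only through the other cells, and without it 2 of the list were lower in each comparison. *Emcn*, the venous and capillary sialomucin, was higher (1.05).

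Genes that build or carry selectin ligands were mostly higher. Of 6 tested, 5 were higher and 1 lower (median 0.87), and against the blood-gate others the counts were the same. *Chst2*, a sulfotransferase, stood at 53.2, 35.3, 59.1 and 39.4 CPM against 20.7, 16.6, 26.9 and 16 CPM (1.30, SE 0.09, adjusted p = 4.16e-05), and the sialyltransferase gene *St3gal4* was higher by 0.99. *Glycam1*, a secreted mucin of high endothelial venules, stood at 126, 103, 11.6 and 62.6 CPM in members of control_4d, control_7d, RA_4d and RA_7d and at 4.83, 10.1, 12.4 and 9.46 CPM in others (2.95, SE 0.59, adjusted p = 0.00641). In RA_4d members were no higher than other cells, so that the 2 kinds overlapped. A few cells carried a large part of it, since the 5 members with the most *Glycam1* held 60.9%, 40.6%, 79.1% and 53.8% of its UMIs in the members of the 4 libraries.

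**Figure D4:**
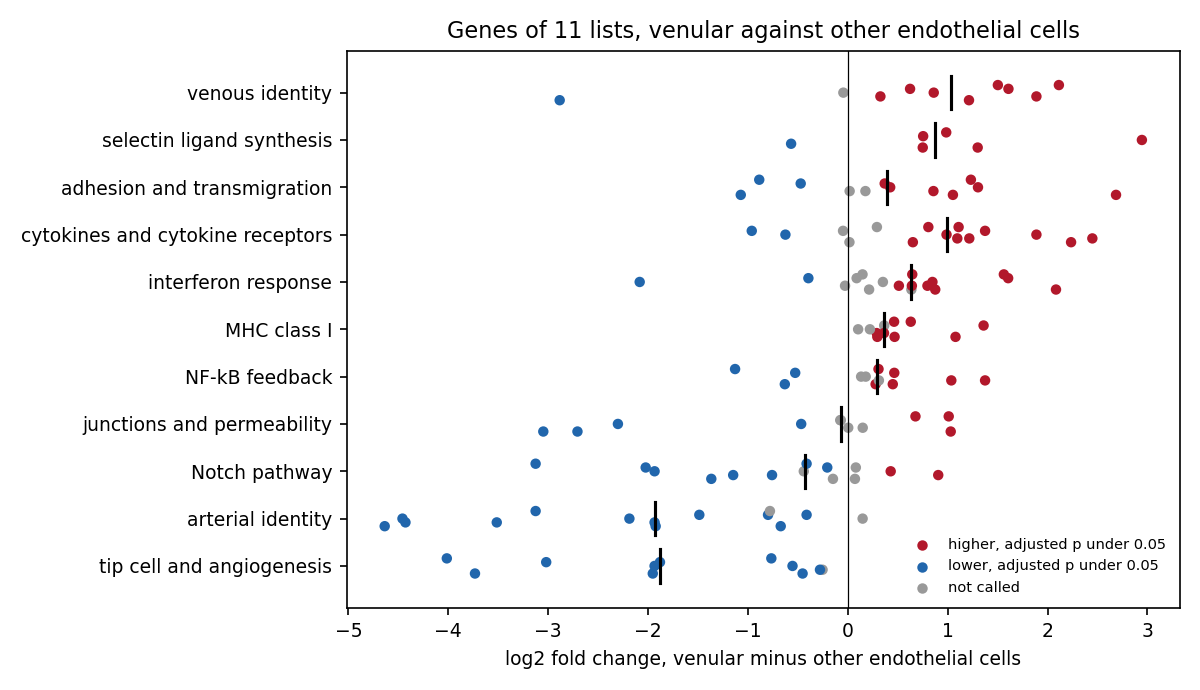
Log2 fold change of single genes (x, venular minus other endothelial cells) in 11 gene lists (y), coloured by the edgeR call, with the list median as a black bar. Most arterial and tip cell genes lay to the left with no gene called higher, and 8 of 10 venous genes lay to the right.

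Cytokine receptors and cytokines were higher in members for 10 of 15 tested genes and lower for 2 (median 0.99). Without the 2 genes that passed the filter through one kind of cell only, 9 of 13 were higher and 1 lower. *Il6st*, the shared receptor subunit gp130 of the IL-6 family, stood at 919, 749, 794 and 929 CPM against 218, 173, 231 and 380 CPM (1.89, SE 0.13, adjusted p = 4.93e-05), with *Osmr*, the oncostatin M receptor, higher by 1.11. *Il6ra*, the IL-6 binding subunit, stood at 6.79, 8.75, 5.40 and 8.51 CPM against 10.8, 12.7, 15.6 and 21.4 CPM, and passed the filter only through the other cells. The cytokine genes *Tnfsf10* (1.38), *Il6* (1.22) and *Csf1* (0.99) were higher. *Csf3*, which encodes granulocyte colony-stimulating factor, stood at 45.3, 15.2, 20.2 and 24.4 CPM in members and at 5.19, 3.28, 7.33 and 4.26 CPM in others, and passed the filter only through members.

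Genes that respond to IL-6 family cytokines were higher for 6 of 12 and lower for 3 (median 0.37), 1 of which (*Lcn2*) passed the filter only through the other cells, with *Lbp* (1.31), *Cebpd* (1.07), *Socs3* (0.64) and *Stat3* (0.43) among the higher beside *Lrg1*. Of 12 NF-kB feedback genes 6 were higher and 3 lower (median 0.29), where 17.5% of all genes tested were higher and 17.9% lower. *Nfkbiz*, an atypical inhibitor protein gene, stood at 401, 324, 319 and 314 CPM against 132, 117, 140 and 163 CPM (1.38, SE 0.11, adjusted p = 6.87e-05). Chemokine genes went the other way, with 1 of 11 higher and 7 lower (median -1.59), while against the blood-gate others 2 of 10 were higher and 5 lower (median -0.77). *Cxcl10*, a chemokine induced by interferon, was the higher one, at 56.4, 126, 34.8 and 35.1 CPM against 16.3, 33.9, 40.8 and 18.9 CPM (1.20, SE 0.31, adjusted p = 0.0205), and in RA_4d it was lower in members. *Ccl2* and *Ccl8*, monocyte attractants that myeloid cells also make, were lower by 2.29 and 3.27.

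Interferon response genes were higher for 9 of 17 and lower for 2 (median 0.64). *Iigp1* stood at 635, 712, 632 and 780 CPM against 129, 146, 147 and 302 CPM, and *Gbp4* (1.61) and *Igtp* (1.56), GTPases of the same response, were higher too. *Rsad2*, an antiviral gene, was lower (-2.08). MHC class I and antigen processing genes were higher for 8 of 11, with the other 3 not called (median 0.37), led by *Nlrc5*, the transactivator of this class, at 1.36. MHC class II genes were lower for 5 of 5 (median -2.70), 1 of which passed the filter only through the other cells, but only *H2-Ab1* and *Cd74* passed the filter against the blood-gate others, where their edgeR log2 differences were 0.51 (adjusted p = 0.376) and 0.71 (adjusted p = 0.233). The leukocyte markers summed above moved with this difference, and their part in it was not tested.

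Among coagulation genes 5 of 11 were higher and 2 lower (median 0.10). Of all genes tested 17.5% were higher and 17.9% lower, and 16.6% and 16.8% against the blood-gate others. Counts in this paragraph that lie near these shares do not set a list apart. *Entpd1*, which breaks down platelet-activating ATP and ADP, stood at 469, 454, 457 and 383 CPM against 244, 166, 225 and 216 CPM (1.13), and *Procr*, the protein C receptor, was higher by 0.69. Weibel-Palade body genes were higher for 4 of 10 and lower for 3, with *Rab27a*, which directs these granules, higher by 1.31. *Angpt2* was lower (-0.55) but not called against the blood-gate others (-0.04, edgeR adjusted p = 0.824). Of 9 prostaglandin and vasoactive genes 4 were higher and 3 lower. Among the higher was *Hrh1*, the histamine H1 receptor, at 33.7, 25.4, 37.2 and 32.7 CPM against 8.35, 2.97, 6.83 and 10.7 CPM (2.27, SE 0.21, adjusted p = 0.000174). Of 13 basement membrane genes 7 were lower and 3 higher (median -0.22), with *Lama4* at -1.43. Against the blood-gate others 8 were lower and the other 5 were not called (median -0.49). The list of VEGF and angiopoietin receptors also holds ligands such as *Pgf* and other receptors such as *Eng*. Of its 14 genes 6 were higher and 3 lower (median 0.13). Of the lower, 1 passed the filter only through the other cells. Against the blood-gate others 6 were higher and 5 lower (median -0.07). The higher genes included *Eng* (0.81), *Ptprb* (0.71) and *Tek* (0.69), while *Kdr*, the main VEGF receptor, was lower (-0.30). Of 17 endothelial transcription factor genes 6 were higher and 4 lower, with *Meox1* (0.84) and *Erg* (0.48) higher beside *Nr2f2*, and *Sox17* (-0.67), *Klf2* (-0.36) and *Sox18* (-0.36) lower. Of 13 immediate early genes 2 were higher and 6 lower (median -0.20). All 11 tested cell cycle genes were lower, 4 of which passed the filter only through the other cells, beside a rule that limits *Mki67* in members and not in the other cells. Against the blood-gate others, where both sides had that limit, 2 of 6 were lower.

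Few genes differed by 2-fold or more between RA and control members. With 1 library per group, values are given without a test. Ratios are of CPM, with exact intervals that cover counting error only, and log2 ratios are on the scale of log2(CPM + 1). At 4 dpf 9520 genes had at least 50 UMIs in both libraries together, of which 41 (0.431%) were at least 2-fold higher in RA and 64 (0.672%) at least 2-fold lower. At 7 dpf 83 (0.772%) of 10746 genes were higher and 71 (0.661%) lower. These counts were smaller with a pseudocount of 10 CPM or with at least 100 UMIs, as given under the processing below. The median log2 ratio of all genes was 0.01 and 0.00.

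At 7 dpf a few members carried most of the mesenchymal marker RNA found in members. The 10 mesenchymal markers summed to 577, 5664, 136 and 4183 CPM in members of control_4d, control_7d, RA_4d and RA_7d, led by *Col1a1* in the first 3 and by *Col3a1* in RA_7d. Members with 20 or more UMIs of these markers numbered 3, 24, 0 and 41, and they held 54%, 91.1%, 0% and 85.2% of the marker UMIs. The median member held 4, 8, 2 and 10 UMIs, and the median myeloid-gate cell 5, 8, 2 and 10. Scrublet called 14 of the 24 and 21 of the 41 as doublets. Without these members (chosen after seeing the data), the genes at least 2-fold lower in RA at 7 dpf numbered 35, and without all called doublets 46.

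The 8 genes with the lowest log2 ratios of RA to control at 7 dpf, among those at 50 CPM or more and lower at both times, differed in how far their 7 dpf values moved once these members were left out. *Cxcl10* stood at 126 CPM in control_7d and 35.1 CPM in RA_7d (ratio 0.278, interval 0.238 to 0.324) and at 56.4 and 34.8 CPM at 4 dpf (0.618, 0.495 to 0.767). It was found in 18%, 27.2%, 11.8% and 13.7% of members of control_4d, control_7d, RA_4d and RA_7d, and the 5 members with the most *Cxcl10* held 46.6%, 39.5%, 67.4% and 31.7% of its UMIs. *Serpinb1a*, an inhibitor of neutrophil proteases, stood at 260 and 86.7 CPM at 7 dpf (0.334, 0.301 to 0.369) and at 206 and 54.8 CPM at 4 dpf (0.266, 0.228 to 0.311). It was found in 49.6% and 58.7% of control members and in 38.5% and 38.9% of RA members at 4 and 7 dpf. *Ch25h*, which makes the sterol 25-hydroxycholesterol, stood at 56.3 and 23.3 CPM at 7 dpf, and *Ehd3*, an endocytic recycling gene, at 132 and 61.4 CPM. Without the mesenchymal-rich members the log2 ratios of these 4 genes at 7 dpf went from -1.82 to -2.04, from -1.57 to -1.63, from -1.24 to -1.36 and from -1.09 to -1.20. The other 4, *Postn*, *Col12a1*, *Aspn* and *Col5a1*, encode matrix proteins of mesenchymal cells, and their log2 ratios went from -1.41 to -0.17, from -1.20 to -0.51, from -1.12 to -0.75 and from -1.11 to -0.18. At 4 dpf the same removal took them from -3.11 to -1.08, from -0.98 to -0.49, from -2.69 to -2.19 and from -2.16 to -1.13, so that *Postn*, *Aspn* and *Col5a1* stayed more than 2-fold lower. Before the removal *Postn*, *Aspn* and *Col5a1* held only 33, 4 and 12 UMIs in RA_4d members, beside 373, 55 and 79 in control_4d members. In the blood-gate others the log2 ratios at 4 and 7 dpf were 0.22 and -1.97 for *Cxcl10*, -1.20 and 0.56 for *Serpinb1a*, -0.13 and -1.43 for *Ch25h* and 0.71 and -0.87 for *Ehd3*.

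The 8 genes with the highest log2 ratios at 7 dpf, under the same limits, were *Trp53i11*, *Pde2a*, *Egr1*, *Tbc1d8*, *Prkag2*, *9530026P05Rik*, *Tgfbr3* and *Selenop*. *Trp53i11* stood at 21.9 CPM in control_7d and 52.8 CPM in RA_7d (ratio 2.41, interval 1.88 to 3.13) and at 42.8 and 56.7 CPM at 4 dpf (1.32, 1.08 to 1.62). Under a stricter gate, of at least 6 UMIs of *Selp* and *Ackr1* together, the direction of *Trp53i11* at 4 dpf turned. *Pde2a*, a phosphodiesterase of cyclic nucleotides, stood at 61.6 and 129 CPM at 7 dpf (2.10, 1.81 to 2.45) and at 98.3 and 133 CPM at 4 dpf (1.35, 1.19 to 1.54). For both genes control_7d was the lowest of the 4 libraries. *Egr1*, an immediate early gene, stood at 57.8 and 109 CPM at 7 dpf, and its log2 ratio of 0.91 went to 0.53 without the mesenchymal-rich members. *Tgfbr3*, the TGF-beta coreceptor betaglycan, stood at 200 and 351 CPM and *Selenop*, a selenium carrier, at 193 and 320 CPM, with ratios of 1.75 (1.61 to 1.91) and 1.66 (1.52 to 1.81). At 4 dpf the ratios of these 2 were 1.14 and 1.12, where the blood-gate others had log2 ratios of 0.87 and 0.83 beside 0.19 and 0.17 in members. At 7 dpf the blood-gate others had 0.71 and 0.65 beside 0.81 and 0.73 in members.

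The selectins and most adhesion genes lay near 1 between RA and control. *Sele* had a ratio of 0.930 (0.852 to 1.02) at 4 dpf and 0.939 (0.863 to 1.02) at 7 dpf. *Icam1* had 1.08 (1.00 to 1.16) and 1.01 (0.939 to 1.09). *Vcam1* was the gene of the list farthest from 1 at 7 dpf among those at 50 CPM or more, at 191 CPM in control and 121 CPM in RA (0.630, 0.570 to 0.698), with 0.870 (0.780 to 0.970) at 4 dpf. The list's median log2 ratio was 0.03 and 0.02, and 0 of 12 genes at 4 dpf and 0 of 13 at 7 dpf were past 2-fold in either direction. Of all genes compared, 0.431% were past 2-fold higher and 0.672% lower at 4 dpf, and 0.772% and 0.661% at 7 dpf. The counts of 0 therefore do not set the list apart. *Vwf* had ratios of 0.921 (0.874 to 0.971) and 1.36 (1.28 to 1.44). *Lrg1* stood at 1406 and 1117 CPM in control_4d and RA_4d and at 1049 and 945 CPM in control_7d and RA_7d. *Selp* and *Ackr1*, as a description, had log2 ratios of 0.17 and 0.17 for the former and -0.23 and -0.26 for the latter.

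Interferon response genes lay lower in RA members for 13 of 17 genes compared at 4 dpf and 12 of 17 at 7 dpf. Their median log2 ratios were -0.13 and -0.40, beside 0.01 and 0.00 for all genes compared. With 1 library per group, counts on either side of 0 are descriptions. *Ifit1* stood at 22.9 and 20.8 CPM in control and RA at 4 dpf and at 35.9 and 17.6 CPM at 7 dpf (ratio at 7 dpf 0.489, interval 0.380 to 0.630). *Isg15*, a ubiquitin-like interferon product, stood at 107 and 103 CPM and at 162 and 99.9 CPM (0.617, 0.553 to 0.690). *Irf7* and *Oasl2* had ratios of 0.513 and 0.535 at 7 dpf. *Iigp1*, the most abundant of the list, had 0.996 and 1.10, and *Rsad2* was higher in RA at 4 dpf, at 8.83 and 24.6 CPM (2.78, 1.89 to 4.16). Control_7d was the highest of the 4 libraries for *Ifit1*, *Isg15* and *Oasl2*. The list's median at 7 dpf stayed at -0.40 without the mesenchymal-rich members. In the blood-gate others it was -0.13 at 4 dpf, as in members, and -0.03 at 7 dpf. The difference between members and others was not tested. Of 11 MHC class I genes 10 lay lower in RA at 4 dpf and 8 at 7 dpf (median -0.25 and -0.19), each by less than 2-fold. *B2m*, the light chain of class I molecules, stood at 924 and 810 CPM and at 1217 and 983 CPM (0.807, 0.777 to 0.839 at 7 dpf).

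**Figure D5:**
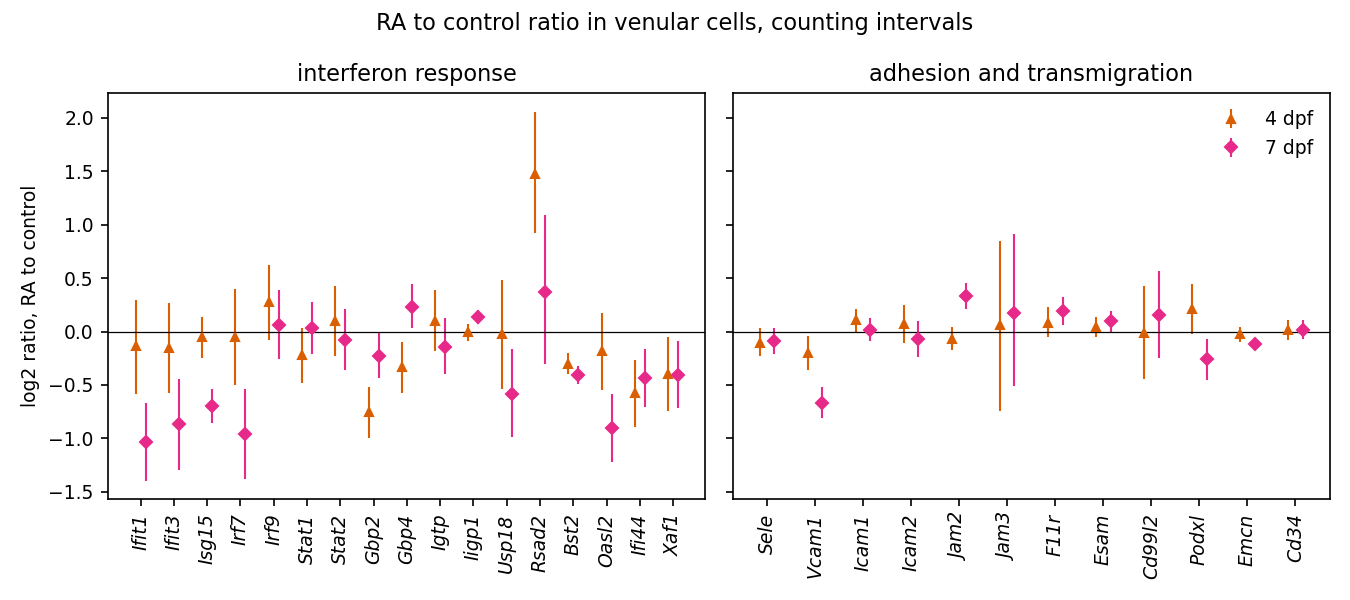
Log2 ratio of RA to control in venular cells (y) for genes (x) of the interferon response list (left) and the adhesion list (right) at 4 and 7 dpf, with exact 95% counting intervals as bars. At 7 dpf *Ifit1*, *Isg15*, *Irf7* and *Oasl2* lay below 0, while *Sele* and *Icam1* overlapped 0.

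Among other lists, *Cxcl1*, a neutrophil attractant, stood at 88.3 and 61.5 CPM at 4 dpf and at 130 and 86.3 CPM at 7 dpf (ratios 0.697 and 0.663), and *Tnfaip3*, the NF-kB feedback gene A20, had ratios of 0.545 (0.433 to 0.684) and 0.549 (0.446 to 0.677). Of 8 chemokine and receptor genes compared at 4 dpf 3 lay above 0, and 3 of 12 at 7 dpf (medians -0.46 and -0.40). The median over all genes compared was 0.01 and 0.00. Capillary genes lay higher in RA for 6 of 7 and 7 of 8 (medians 0.42 and 0.35). *Gpihbp1* stood at 68.6 and 136 CPM at 4 dpf (1.98, 1.71 to 2.29) and at 79.4 and 113 CPM at 7 dpf (1.43, 1.24 to 1.64), and *Cd36*, a fatty acid receptor, had ratios of 1.47 and 1.45. The capillary median at 7 dpf was 0.16 without the mesenchymal-rich members and 0.32 in the blood-gate others. *Glycam1* had 555 UMIs in control_4d and 43 in RA_4d (ratio 0.0923, 0.0661 to 0.126), and was found in 33 of 244 and 12 of 195 members, with up to 186 UMIs in 1 cell. *Cldn5* stood at 28.1 and 89.9 CPM at 4 dpf (ratio 3.2, 2.6 to 3.97) and at 54.3 and 84.2 CPM at 7 dpf (1.55, 1.32 to 1.84), below the 444 to 614 CPM of other endothelial cells in every library. The erythroid markers summed to 146, 625, 7.29 and 447 CPM in members, led by haemoglobin genes. The mural cell markers summed to 443, 244, 176 and 183 CPM in members, led by *Tagln*. Of the mural markers 4 of 4 compared at 4 dpf were past 2-fold lower in RA (median log2 ratio -2.46). At 7 dpf 1 of 6 was past 2-fold higher and 1 lower (median -0.305). The part of erythroid and mural cell RNA in the ratios was not tested.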

How the data were processed

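The series holds droplet single-cell RNA-seq (Chromium 3′) of 4 libraries. The authors mapped reads with Cell Ranger 7.0.1 to mm10, per the submitters' processing notes, and deposited filtered matrices of UMI counts, raw and not normalized. Cells with 4000 to 50000 UMIs, 2000 to 7000 genes and at most 8% mitochondrial UMIs were kept. Doublets were called with Scrublet (scanpy 1.11.5) and left in, except in an alternative (609 of 25479 cells, 2.39%). Members were chosen by the gate given above. The cells and gene lists were chosen with earlier results of these data known. UMIs were summed per library and kind, and genes with at least 10 CPM in 4 of 8 sums were tested with edgeR 4.0.16 (TMM, library block, quasi-likelihood, Benjamini-Hochberg adjustment over all genes), with DESeq2 1.42.0 as an alternative. In simulated counts for the comparison of members with other cells, with 8913 genes, 100 of 100 genes changed by 1 on the log2 scale and 40 of 100 changed by 0.5 were recovered, with 5 unchanged genes called. The simulated libraries shared the same profile apart from depth, with the same spread for every gene. The real libraries differ in treatment and time, so these counts do not give the power of the real comparison. RA and control members were compared by CPM without a test. Alternatives changed the filter, scaling, pseudocount, gate, block, comparison cells and libraries.

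Named genes were the rule genes and 5 markers, members of 29 fixed lists, the 15 highest and 10 lowest fold changes in members (adjusted p under 0.05, at least 50 CPM, same direction in 4 libraries), and the 8 highest and 8 lowest RA to control ratios at 7 dpf (at least 50 CPM, at least 50 UMIs at both times, same direction at 4 dpf). Calluses were pooled, so animals cannot be told apart within a library, and the p-values measure the spread among these 4 libraries only. Total UMIs behind the member sums were 4417182, 3427624, 3705918 and 7634847 in control_4d, control_7d, RA_4d and RA_7d. Gene positions are from GENCODE M21 (GRCm38).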

Additional observations from a re-analysis of the deposited data

Results flagged for a closer look

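The log2 ratio of *Vwf* between members and other endothelial cells was 1.15 in RA_7d, apart from 2.29, 2.37 and 2.34 in control_4d, control_7d and RA_4d. RA_7d was also the lowest library for each of the 15 genes outside the rule with the largest fold change, and for *Sele* and *Lrg1* its log2 ratios were 2.14 and 1.45. For *Vwf* it was the lowest by a gap that 4 values rarely show, though chance alone flags about 1 in 20 such groups. In the same library the other endothelial cells held *Vwf* at 273 CPM, beside 85.7 to 147 CPM in the others, and the lymphatic gate held 462 CPM, with 443 CPM in control_4d. The part of the 181 cells of RA_7d that passed the *Selp Ackr1* threshold but not the gate was not tested.

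Genes of the fixed lists, 10 in all, had RA to control ratios on opposite sides of 1 at 4 and 7 dpf, each by at least 0.5 on the log2 scale with counting intervals that left out 1, and with 1 library a group the difference was not tested. The difference of log2 ratios (7 minus 4 dpf) was 1.77 for *Csf3*, 1.74 for *H2-Ab1*, 2.04 for *H2-Eb1*, 1.34 for *C1qb* and 2.41 for *Dcn*. It was -1.44 for *Apln*, -1.50 for *Mcm2*, -1.96 for *Mcm5*, -5.41 for *S100a8* and -5.09 for *S100a9*. *Dcn*, a mesenchymal gene, stood at 23.3, 257, 7.29 and 465 CPM in members of control_4d, control_7d, RA_4d and RA_7d and at 4897, 2230, 3239 and 4728 CPM in mesenchymal-gate cells. *C1qb*, a macrophage gene, stood at 9.28, 10.2, 4.86 and 15.2 CPM in members and at 1883, 2086, 1252 and 2347 CPM in myeloid-gate cells, and *H2-Ab1* at 10.9, 11.4, 5.67 and 22.3 and at 1173, 1439, 860 and 1854 CPM. *H2-Eb1* stood at 9.06, 9.92, 3.51 and 19.1 CPM in members and at 1154, 1406, 856 and 1872 CPM in myeloid-gate cells. In these mesenchymal and myeloid gates the 4 genes were lower in RA than in control at 4 dpf and higher at 7 dpf, and the part of these cells in the member values was not tested. *Csf3* stood at 45.3 and 20.2 CPM in control and RA at 4 dpf and at 15.2 and 24.4 CPM at 7 dpf. It was found in 19.7%, 11.9%, 14.9% and 13.1% of members of control_4d, control_7d, RA_4d and RA_7d, and 5 members held 47.5%, 46.2%, 49.3% and 30.6% of its UMIs. *S100a8*, a neutrophil gene, was found in 50.8% of RA_4d members, beside 4.92%, 13.2% and 5.97% in control_4d, control_7d and RA_7d. Its level in members was 2.72, 13.1, 57.2 and 4.19 CPM in control_4d, control_7d, RA_4d and RA_7d, and in mesenchymal-gate cells, which should lack it, 2.62, 10.5, 42.6 and 5.59 CPM. In RA_4d 1 member held 66 *S100a8* UMIs and 5 members held 40.1% of them. *S100a9* stood at 3.85, 10.8, 75.3 and 4.45 CPM in members and at 3.31, 10.8, 43.6 and 6.12 CPM in mesenchymal-gate cells. The part of RNA from other cells in these values was not tested.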

How the results depend on the processing

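Of 402 recomputed log2 differences between members and other cells, for the markers and the genes with the largest fold changes and not for the lists, 400 kept their direction and call. *S100a9* turned to 0.56 against the others of the blood gate and to 0.52 against others without *Selp* or *Ackr1*. Without a filter on low counts 1843 of 23991 genes were higher (7.68%) and 2819 lower (11.8%). Leaving out 1 library gave 1082 to 1492 genes higher and 1195 to 1561 lower, and DESeq2 1252 and 1251. The RA to control ratio of the venular share at 7 dpf was 2.06 over all kept cells. Genes at least 2-fold higher and lower in RA numbered 9 and 25 at 4 dpf and 12 and 18 at 7 dpf with a pseudocount of 10 CPM, and 15 and 29, then 47 and 38, with at least 100 UMIs. Those lower at 7 dpf numbered 46 without called doublets and 35 without cells of 20 or more mesenchymal marker UMIs, chosen after seeing the data. At 4 dpf the log2 ratio of *Trp53i11* was -0.072 under the stricter gate, and that of *Tbc1d8* -0.022 with TMM scaling and -0.001 without the mesenchymal-rich cells. The cause was not tested. Of 435 recomputed list medians 374 moved by less than 1 SD over the libraries, and of 189 recomputed gene ratios 165 stayed within their counting interval. The comparison of members with other cells was paired by library, and without that replicate block 1052 genes were higher and 1089 lower. RA and control were not tested, paired or unpaired. Depth limited genes under about 50 UMIs, which were not compared.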

Other observations

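*Ackr1* UMIs were also found outside the endothelium. Among mesenchymal-gate cells 17.3%, 3.1%, 6.74% and 8.71% had at least 1 in control_4d, control_7d, RA_4d and RA_7d, beside 0.787%, 0.464%, 0.395% and 1.1% of myeloid-gate cells. The level in these mesenchymal-gate sums was 12.3, 2.01, 3.13 and 5.77 CPM, against 518, 435, 441 and 363 CPM in members. *Itga2b*, a platelet integrin gene, stood at 46.0, 39.4, 44.0 and 33.0 CPM in members and at 15.8, 14.7, 16.8 and 15.5 CPM in other endothelial cells (edgeR log2 fold change 1.43, SE 0.10, adjusted p = 4.65e-05). Of 3 platelet markers tested it was the 1 higher, and *Itgb3* and *Pf4* were lower (median -0.78). *Itgb3* stood at 15.2, 19.5, 22.4 and 15.6 CPM in members against 34.2, 33.4, 37.7 and 26 CPM. Against the blood-gate others 1 of 3 was higher and 1 lower (median -0.39). *Pf4*, the platelet chemokine, stood at 15.2, 5.83, 7.02 and 9.43 CPM in members, at 17.6, 6.74, 22.3 and 16.1 CPM in remaining blood endothelial cells and at 2595, 1470, 1798 and 1084 CPM in myeloid-gate cells, and was not called against the blood-gate others (-0.39, edgeR adjusted p = 0.17). *Tagln*, a contractile gene of mural cells, stood at 307, 159, 146 and 130 CPM in members and was higher than in all other endothelial cells (1.25) but not called against the blood-gate others (0.78, edgeR adjusted p = 0.14). It was the 1 higher gene of 5 mural cell markers tested, of which 2 were lower (median -0.62). Against the blood-gate others 0 of 6 were higher and 4 lower (median -1.45).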
